A study of Mus musculus with 6 samples.

Results

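The mitochondrial ribosomal protein genes were taken by name, as every gene of the deposited table whose symbol begins with Mrpl or Mrps and a number. This gave 77 of 19330 genes, 29 with Mrps names (small subunit) and 48 with Mrpl names (large subunit), and all 77 passed the filter on low counts. RNA sequencing had been done on 6 mouse libraries. They were 2 control lines of induced pluripotent stem cells (iPSC 3 and 7), 2 iPSC lines whose label adds palmitoylcarnitine (PC iPSC 5 and 13), 1 library of embryonic stem cells (ESC, titled B6) and 1 of mouse embryonic fibroblasts (MEF). ESC and all iPSC lines were grown with leukemia inhibitory factor on feeder fibroblasts treated with mitomycin C, and MEF in serum medium. Genotype, animal age, reprogramming method, and the dose and timing of palmitoylcarnitine are not stated by the sources at hand, and nothing says whether lines came from separate animals.

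Mitochondria carry ribosomes of their own, which translate the few respiratory chain subunits encoded in mitochondrial DNA. Their proteins are all made from nuclear genes and imported, and the mitoribosome holds many proteins that its bacterial relatives lack, among them those that tie it to the inner membrane. Cells that come to depend on respiration need this machinery, while pluripotent cells are known for active glycolysis and small, round mitochondria. The names follow the subunit with exceptions: Mrps18a and Mrps30 are now placed in the large subunit, and Mrps36 is a subunit of the 2-oxoglutarate dehydrogenase complex.

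The members stand on most autosomes, with 10 of them on chromosome 11 and 8 on chromosome 17. Promoter windows running from 250 bases before to 50 after the gene start (RefSeq, GRCm38.p6) were at hand for 68 members. The windows were searched on both strands for the core letters of factors known to control nuclear genes of mitochondria, and NRF1 and the ETS factor GABP are the best known of these. The ETS letters CCGGAAG were in 24 windows, 35.3% of the members' and 14.3% of the windows of 14022 protein-coding genes. The core palindrome of NRF1 was in 13 windows, 19.1% against 8.13%, and the YY1 letters AAGATGGCG in 8 windows, 11.8% against 2.41%. At least 1 of these motifs stood in 39 windows, 57.4% against 22.5% of all genes. The GC box GGGCGG, was in 34 windows, 50% against 55.9%, and the E-box CACGTG, which Myc proteins bind, was in 5 windows, 7.35% against 9.19%. The ETS letters end in AAG, with which the YY1 letters begin, so matches of these motifs can share bases, and a match describes letters, not binding. Members with the start of a protein-coding gene on the opposite strand, at most 1000 bases upstream of their own start, were 18 of 77. This is 23.4%, against 8.10% of 17551 protein-coding genes. Pairs of genes that overlap at their starts were not counted.

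Windows of 5 members are shown for the results that follow, 5′ to 3′ on the gene's strand, with NRF1, ETS or YY1 letters in capitals. Mrps24, Mrps5 and Mrpl45 are members with large differences from MEF, Mrpl3 is the member with the largest difference from ESC, and Mrps6 is the member that was higher in MEF. Mrps24 (chr11:5707652-5707951, minus strand) holds YY1 letters downstream of its start. Mrpl45 (chr11:97315466-97315765, plus strand) holds 3 NRF1 matches in a window inside the span of the gene, which begins at 97314923, and Mrpl3 (chr9:105053018-105053317, plus strand) 1 ETS match. Mrps5 (chr2:127587176-127587475, plus strand) and Mrps6 (chr16:92058086-92058385, plus strand) hold none of the searched NRF1, ETS and YY1 letters.
Mrps24: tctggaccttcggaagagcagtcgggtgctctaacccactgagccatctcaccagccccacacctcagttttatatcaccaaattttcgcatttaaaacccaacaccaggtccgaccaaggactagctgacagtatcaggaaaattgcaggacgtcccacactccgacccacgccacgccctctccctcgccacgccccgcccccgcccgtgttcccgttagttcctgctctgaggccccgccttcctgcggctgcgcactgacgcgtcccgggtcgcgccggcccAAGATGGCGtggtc
Mrps5: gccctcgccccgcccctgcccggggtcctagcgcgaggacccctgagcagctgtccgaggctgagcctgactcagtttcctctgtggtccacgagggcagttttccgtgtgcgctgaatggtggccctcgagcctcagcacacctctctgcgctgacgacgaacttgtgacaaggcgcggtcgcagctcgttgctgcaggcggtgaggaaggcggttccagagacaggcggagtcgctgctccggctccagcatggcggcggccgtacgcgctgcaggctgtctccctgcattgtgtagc
Mrpl45: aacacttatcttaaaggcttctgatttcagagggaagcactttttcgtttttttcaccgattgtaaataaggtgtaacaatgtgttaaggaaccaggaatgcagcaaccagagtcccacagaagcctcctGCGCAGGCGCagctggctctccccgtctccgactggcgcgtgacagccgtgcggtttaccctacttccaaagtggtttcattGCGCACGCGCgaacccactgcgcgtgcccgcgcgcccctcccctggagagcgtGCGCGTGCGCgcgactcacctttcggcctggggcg
Mrpl3: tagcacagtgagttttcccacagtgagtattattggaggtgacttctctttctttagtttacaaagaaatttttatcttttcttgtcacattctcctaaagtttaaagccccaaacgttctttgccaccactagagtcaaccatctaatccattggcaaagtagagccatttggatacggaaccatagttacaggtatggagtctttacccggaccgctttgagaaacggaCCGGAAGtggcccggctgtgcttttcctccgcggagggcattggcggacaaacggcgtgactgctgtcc
Mrps6: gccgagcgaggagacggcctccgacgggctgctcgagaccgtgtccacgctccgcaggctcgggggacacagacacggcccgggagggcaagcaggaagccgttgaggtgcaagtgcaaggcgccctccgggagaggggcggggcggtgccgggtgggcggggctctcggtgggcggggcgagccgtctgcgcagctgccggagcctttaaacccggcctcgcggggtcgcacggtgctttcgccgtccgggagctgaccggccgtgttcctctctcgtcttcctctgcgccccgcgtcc

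Library totals ran from 26.51 M to 27.99 M assigned reads, and single members held 205 to 5929 reads in a library. The library labelled MEF stood apart. It held high RNA of the reprogramming factors Pou5f1 (158 RPKM, reads scaled by gene length and library total), Sox2 (88.2), Klf4 (123.5) and Myc (154), while Nanog was at 0.0482 and 5 of 8 pluripotency markers, Esrrb, Zfp42, Dppa5a, Tdgf1 and Utf1, were at 0. The 8 fibroblast markers summed to 5587 RPKM there, against 543 to 1250 in iPSC and 287 in ESC, and none was at 0. Macrophage markers summed to 635 RPKM in MEF, with the lysozyme gene Lyz2 at 463, against 12.9 to 18.4 in iPSC and 68.5 in ESC. The part of these transcripts in the results below was not tested.

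The members were moderately expressed and had similar totals in the pluripotent libraries. Their RPKM summed to 3358 and 3295 in control iPSC 3 and 7, 3452 and 3295 in PC iPSC 5 and 13, 3114 in ESC and 1471 in MEF. The medians were 38.2, 36.7, 36.6, 38.8, 34.3 and 17.6 RPKM in the same order, and members took 0.378% to 0.404% of all reads in iPSC, 0.366% in ESC and 0.164% in MEF. The 5 pluripotent libraries were close together, and MEF lay below all of them. In bulk RNA, fewer cells of a type and less RNA per cell cannot be told apart. Small and large subunit names had like medians in each library, 38.2 and 38.8 RPKM in control iPSC 3 and 17.2 and 19.3 in MEF.

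**Figure D1:**
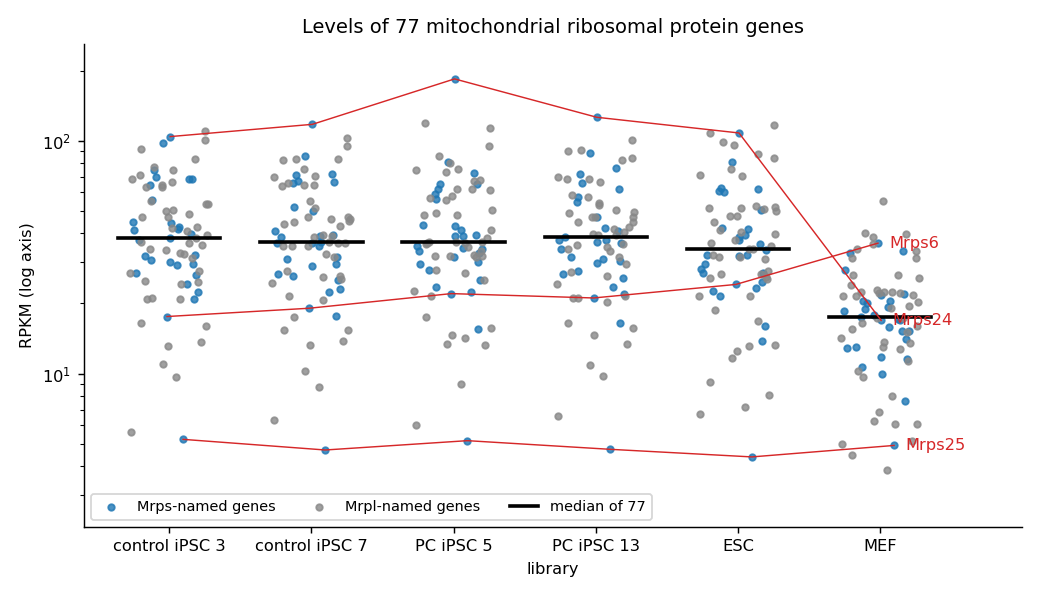
RPKM of the 77 members on a log axis, 1 point per gene and library, with Mrps names in blue, Mrpl names in grey and the median as a black bar. Lines follow Mrps24, Mrps6 and Mrps25. The medians of the 5 pluripotent libraries lie between 34.3 and 38.8 and that of MEF at 17.6.

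Levels between members differed more than the levels of most single members between lines. Ranked by the mean RPKM of all 6 libraries, MEF included, the highest was Mrps24, a protein of the small subunit head that corresponds to bacterial S3, with 104 and 118 RPKM in control iPSC 3 and 7, 184 and 126 in PC iPSC 5 and 13, 108 in ESC and 16.9 in MEF. PC iPSC 5 was highest and MEF far below all others. Next came Mrpl24 (104 ± 6.4 RPKM over iPSC, SD, n = 4), Mrpl12 (96.1 ± 16.2), Mrpl42 (95.9 ± 10.8) and Mrpl30 (84.4 ± 6.01). Over the iPSC lines alone Mrps5 (88.2 ± 7.03) stood above Mrpl30. The ranges of the lines overlapped between each of these 5 and the next. Mrpl24 is a protein of the exit tunnel region and Mrpl12 the stalk protein that contacts translation factors. At the low end stood Mrps25 (4.95 ± 0.273), Mrpl41 (6.13 ± 0.416), Mrpl19 (9.3 ± 0.493), Mrpl57 (11.4 ± 1.37) and Mrpl35 (13.6 ± 0.28). Of these, the lines overlapped between Mrpl57 and Mrpl35 and between no other neighbours. The 3 Mrps18 paralogs, of which Mrps18b and Mrps18c belong to the small subunit, were at 34.2 ± 5.35 for Mrps18a, 67 ± 2.25 for Mrps18b and 39.6 ± 4.18 RPKM for Mrps18c. The rank order of the 77 genes had a Spearman correlation of 0.933 to 0.985 over the 6 pairs of iPSC lines, 0.899 to 0.960 between the iPSC lines and ESC, and 0.609 to 0.630 between the iPSC lines and MEF. These are descriptions over genes measured in the same libraries, and the first 2 ranges overlap.

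Spread between the 4 iPSC lines was narrow. The SD of log2 CPM (counts scaled to library size) had a median of 0.121 over members and 0.138 over the 7096 genes of the same range of mean. Values ran from 0.026 for Mrpl15, a large subunit protein with 32.7, 32.6, 34.9 and 33.5 RPKM in control iPSC 3 and 7 and PC iPSC 5 and 13, to 0.346 for Mrpl38. Mrpl38, of the central protuberance, stood at 50, 46.9, 80.1 and 47.1 in the same order, with PC iPSC 5 as the high line.

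No member passed the test between PC and control iPSC. By edgeR's quasi-likelihood test with Benjamini-Hochberg adjustment 0 of 77 members were called, where 0.0% of the 16435 genes tested were called. At an unadjusted p under 0.05 stood 1 member, Mrps24, beside 2.34% of all genes, and DESeq2 called 0. The log2 difference of Mrps24 was 0.46 (SE 0.19, adjusted p = 0.963), from the values given above. PC lines lay above both control lines for 11 members and below for 17, where 14.6% of genes were higher and 16.8% lower. The median log2 difference was -0.02 for members and 0.00 for all genes tested.

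The members with the largest differences without overlap of lines, none past the threshold, fell on different chromosomes by direction. The 4 higher were all on chromosome 11: Mrps24, then Mrpl10 (0.39, SE 0.19), Mrpl55 (0.31, SE 0.19) and Mrpl45 (0.29, SE 0.16). Mrpl10, which holds the stalk to the ribosome, was at 40.9 and 36.7 RPKM in control iPSC 3 and 7 and at 61.8 and 41.6 in PC iPSC 5 and 13. PC iPSC 13 lay just above control iPSC 3, and PC iPSC 5 well above both. The 4 lower were on other chromosomes: Mrps11 (-0.30, SE 0.18), Mrpl50 (-0.28, SE 0.20), Mrps18c (-0.26, SE 0.17) and Mrps16 (-0.23, SE 0.14). Mrpl50, a large subunit protein that bacteria lack, was at 21 and 20.6 RPKM in control lines, 14.3 in PC iPSC 5 and 20.4 in PC iPSC 13, so 1 PC line was low. Without PC iPSC 5 the 10 members on chromosome 11 had a median difference of 0.06, with 7 of 10 above 0.

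**Figure D2:**
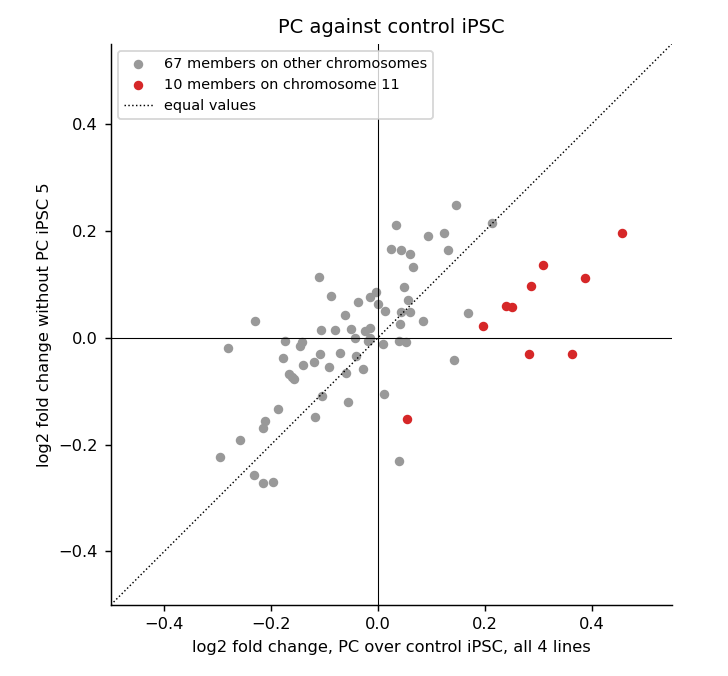
Log2 difference of PC against control iPSC for each member with all 4 lines (horizontal) and without PC iPSC 5 (vertical). Members on chromosome 11 (red) lie below the line of equal values, with a median of 0.29 with all lines and 0.06 without PC iPSC 5.

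The 10 members on chromosome 11 differed by line from the other 67. PC iPSC 5 was the highest of the 4 iPSC lines for 10 of 10 members there, as it was for 78.3% of the 1352 genes tested on that chromosome. From start to end of the chromosome they were Mrps24, Mrpl22, Mrpl55, Mrps23, Mrpl27, Mrpl10, Mrpl45, Mrps7, Mrpl38 and Mrpl12. Their median excess over the other iPSC lines was 0.43 on the log2 scale, beside 0.42 for all genes of the chromosome, and single members ran from 1.22-fold for Mrpl22 to 1.61-fold for Mrpl38. The ESC library was above the iPSC mean for 9 of 10, median 0.28 (all genes there 0.31), with Mrpl38 at 0.85 and Mrpl45 at 0.78 and Mrps24 the exception at -0.23. The 67 members elsewhere had a median of -0.08 in PC iPSC 5, which was lowest of the 4 lines for 37 of them, against 36.1% of all genes of those chromosomes. On chromosome 11, PC iPSC 13 was above the mean of the other iPSC lines for 0 of 10 members. Its median was -0.09, beside -0.12 for all genes of the chromosome. That mean includes the high PC iPSC 5, so these values cannot show whether PC iPSC 13 held a smaller excess. Against the control lines alone, PC iPSC 13 had a median difference of 0.06 over the 10 members, 7 of them above 0. All genes of the chromosome had a median of 0.01 there. The larger excess was that of PC iPSC 5. The cause of the chromosome 11 pattern was not tested, and line 5 is 1 line.

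**Figure D3:**
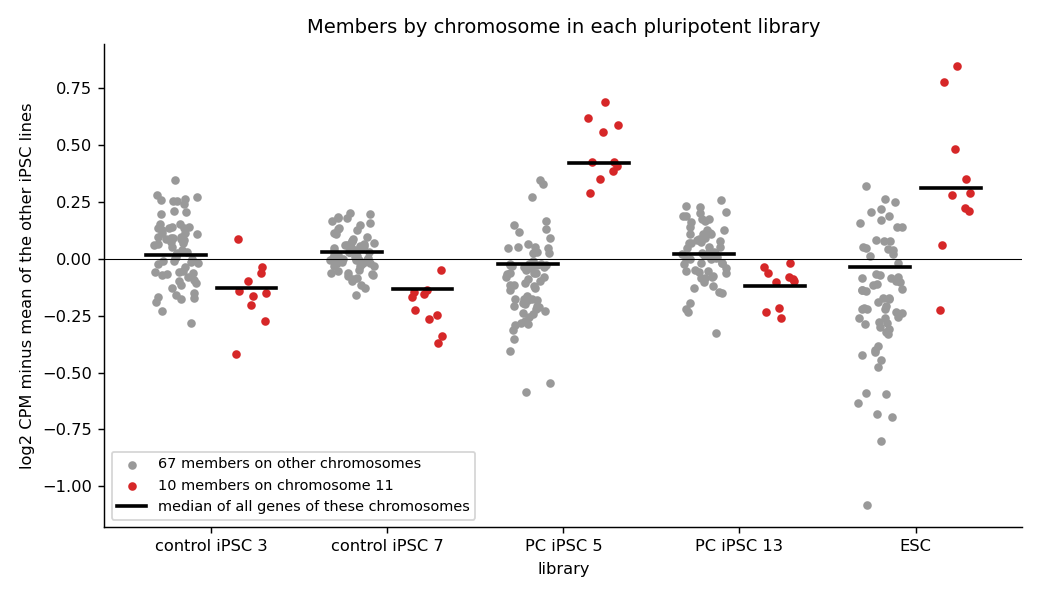
Log2 CPM of each member minus the mean of the other iPSC lines, in 5 pluripotent libraries, with chromosome 11 members in red, others in grey and black bars for the median of all genes of those chromosomes. The red points lie above 0 in PC iPSC 5 for 10 of 10 members and in ESC for 9 of 10.

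Against ESC, 4 members were called higher in iPSC and 1 was called lower, in the same model. The same 4 iPSC lines stand in this comparison and in that with MEF. The background was 4.71% of genes higher and 5.71% lower, and the members' shares of 5.19% and 1.30% are near or under it. The median log2 difference was 0.13 for members and 0.03 for all genes. Lines did not overlap the ESC library for 37 members above it and 16 below, where 33.2% and 32.6% of genes did so. Of 8 fibroblast markers, all 8 were above ESC in every iPSC line (median log2 difference 1.89). The test called 6 of the 8 higher, and the part of these transcripts was not tested.

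Mrpl3 (chromosome 9, 105053268 to 105077466, GRCm38), a large subunit protein close to the peptidyl transferase centre, was at 36.4 and 38.8 RPKM in control iPSC 3 and 7, 32.3 and 39.4 in PC iPSC 5 and 13 and 16.8 in ESC. All 4 lines lay above ESC and above the MEF value of 22.2. Its log2 difference was 1.09 (SE 0.19, adjusted p = 0.0233), a fold of 2.13. Mrpl1, of the mobile stalk beside the tRNA exit site, was at 16.6, 15.5, 17.5 and 16.4 RPKM in iPSC and 9.2 in ESC. Its difference was 0.80 (SE 0.15, adjusted p = 0.0275). Mrpl35, another large subunit protein, was at 13.7, 13.8, 13.2 and 13.4 against 8.13, a difference of 0.70 (SE 0.15, adjusted p = 0.0371). Mrps14, a small subunit head protein, was at 26.4, 25.2, 25.2 and 25.6 against 16, a difference of 0.64 (SE 0.15, adjusted p = 0.0456). All 4 of these genes showed less spread between lines than their distance to ESC, which is what the test selects for and adds no support. Mrps14 passed no longer without control iPSC 3 or without PC iPSC 13, with adjusted p of 0.0649 and 0.0515. With limma on log2(RPKM + 1) none of the 5 members called against ESC passed, the adjusted p running from 0.0655 for Mrpl3 to 0.106 for Mrpl45. Of all genes tested, that run called 3 higher and 8 lower.

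Mrpl45 (chromosome 11, 97314923 to 97329920), which binds the mitoribosome to the inner membrane beside the exit tunnel, was at 48.5 and 46 RPKM in control iPSC 3 and 7, 67.2 and 50.1 in PC iPSC 5 and 13, and 87.3 in ESC. It was the 1 member called lower in iPSC, with a log2 difference of -0.77 (SE 0.17, adjusted p = 0.0358). It lies on chromosome 11, where all genes had a median of -0.29. Mrpl38, of chromosome 11 too, was at 95.5 RPKM in ESC and had a difference of -0.83 (SE 0.24, adjusted p = 0.0754), not past the threshold. Leaving out any 1 iPSC line brought Mrpl38 under it, in runs that called more of all genes too. The next lower were Mrps23 (-0.47, SE 0.22) and Mrpl55 (-0.34, SE 0.20), not past the threshold, and Mrps12, the decoding centre protein, was higher at 0.69 (SE 0.17, adjusted p = 0.054). The 10 members on chromosome 11 had a median of -0.28 and the other 67 of 0.17, where all other genes had 0.05.

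**Figure D4:**
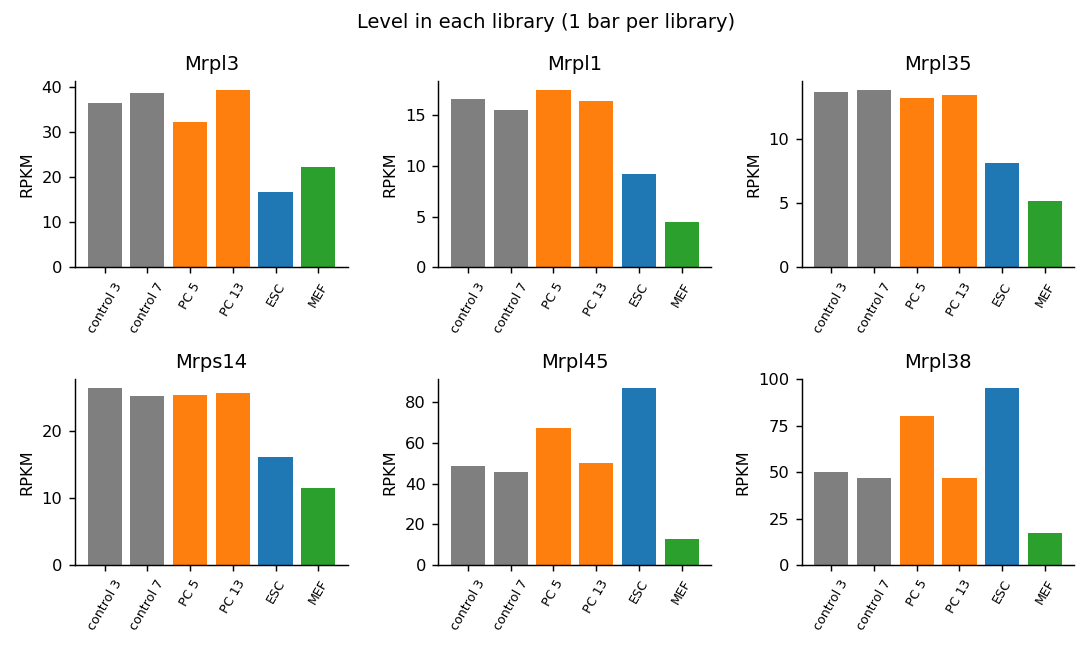
RPKM in each of the 6 libraries for the 5 members past the threshold against ESC and for Mrpl38, 1 bar per library. ESC is the lowest pluripotent library for Mrpl3, Mrpl1, Mrpl35 and Mrps14 and the highest for Mrpl45 and Mrpl38.

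Against MEF, nearly the whole family was higher in iPSC. The test called 68 of 77 higher and 1 lower, or 88.3% and 1.30%, against 36.5% and 31.6% of all genes. The median log2 difference was 1.18 for members and 0.16 for all genes tested, and 1.08 and 0.07 with another scaling. Every iPSC line lay above MEF for 74 members, below for 1 and on both sides for 2, where all lines lay above for 47.4% of genes and below for 41.4%. A fold of at least 2 was reached by 47 of the called members and at least 4 by 6. The shares of all genes at these folds were not counted, so nothing particular to the members is read from them. By subunit name, 25 of 29 small subunit genes were called higher, with a median of 1.23. Of the large subunit genes it was 43 of 48, with a median of 1.11. The difference was above 0 for 28 of 29 and 48 of 48, and for 8819 of the 16435 genes tested. In the counts of genes that follow, rose and fell mean past the threshold. The single MEF library was set against 4 lines, and it is assumed to vary as the iPSC lines do.

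The largest difference was that of Mrps24 (chromosome 11, 5703982 to 5707701), with 16.9 RPKM in MEF against 133 ± 35.3 in iPSC (SD, n = 4), a log2 difference of 2.97 (SE 0.26, adjusted p = 9.95e-05). Its exons overlap those of Urgcp on the same strand, which was at 11.5 RPKM in MEF and 1.85 to 4.19 in iPSC. Mrpl15 (chromosome 1, 4773198 to 4785750), a large subunit protein, was at 6.06 RPKM in MEF and 32.6 to 34.9 in iPSC, a difference of 2.49 (SE 0.16, adjusted p = 3e-05). ESC stood near the iPSC lines for both genes, at 108 and 34.2 RPKM. Mrps5, which lines the messenger path of the small subunit, was at 17.8 in MEF and 81 to 97.8 in iPSC, a difference of 2.33 (SE 0.18). Mrps28, the mitochondrial S1 protein, was at 9.92 against 43.2 to 50, a difference of 2.24 (SE 0.21). Mrps10, of the head, was at 17 against 68.5 to 76.3, a difference of 2.11 (SE 0.17). Mrpl45 followed with 12.7 against 46 to 67.2 and a difference of 2.07 (SE 0.20), then Mrpl1 and Mrpl21 at 1.91 each.

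By place in the mitoribosome, the calls against MEF were spread over all the regions listed. Of all genes tested 36.5% rose and 31.6% fell (median 0.16). Of the stalks and stalk base, Mrpl1 included, 6 of 6 rose (median 1.32). Of the exit tunnel it was 8 of 8 (median 1.63) and of the central protuberance 6 of 8 (median 1.43). Of small subunit proteins with a bacterial counterpart 13 of 15 rose and 1 fell, and of those found in mitochondria only 7 of 9 rose (medians 1.23 and 0.91). In the large subunit 27 of 29 with a bacterial counterpart and 15 of 18 without rose (medians 1.05 and 1.21). Mrps12 (1.90, SE 0.19) was at 19 RPKM in MEF and 62.3 to 75.1 in iPSC. The RNase III family protein Mrpl44 (1.08, SE 0.17) and the PPR protein Mrps27 (1.35, SE 0.20) rose as well. All 6 mitoribosome proteins with other names, Dap3, Chchd1, Aurkaip1, Ptcd3, Ict1 and Gadd45gip1, were called higher too (median 1.48).

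Mrps6 (chromosome 16, 92058336 to 92112227), a small subunit protein of the platform, was the exception. It was at 17.6, 19.1, 22.1 and 21.1 RPKM in control iPSC 3 and 7 and PC iPSC 5 and 13, 24.1 in ESC and 36.3 in MEF, and fell in iPSC by 0.85 on the log2 scale (SE 0.17, adjusted p = 0.00406). Its exons overlap on the same strand those of Slc5a3, an inositol transporter gene, which was at 11.8 RPKM in MEF and 1.99 to 2.71 elsewhere, and the use of strand in counting is not stated. The part of Slc5a3 reads in the Mrps6 value was not tested. The 8 members that passed in neither direction were Mrpl50 (0.02, SE 0.23), Mrps25 (0.03, SE 0.16), Mrpl52 (0.18, SE 0.17), Mrps34 (0.29, SE 0.16), Mrpl41 (0.32, SE 0.21), Mrps21 (0.40, SE 0.21), Mrpl14 (0.44, SE 0.25) and Mrpl27 (0.45, SE 0.21). Mrps25 was at 4.92 RPKM in MEF and 4.7 to 5.22 in iPSC, and it and Mrpl50 were the 2 with lines on both sides.

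**Figure D5:**
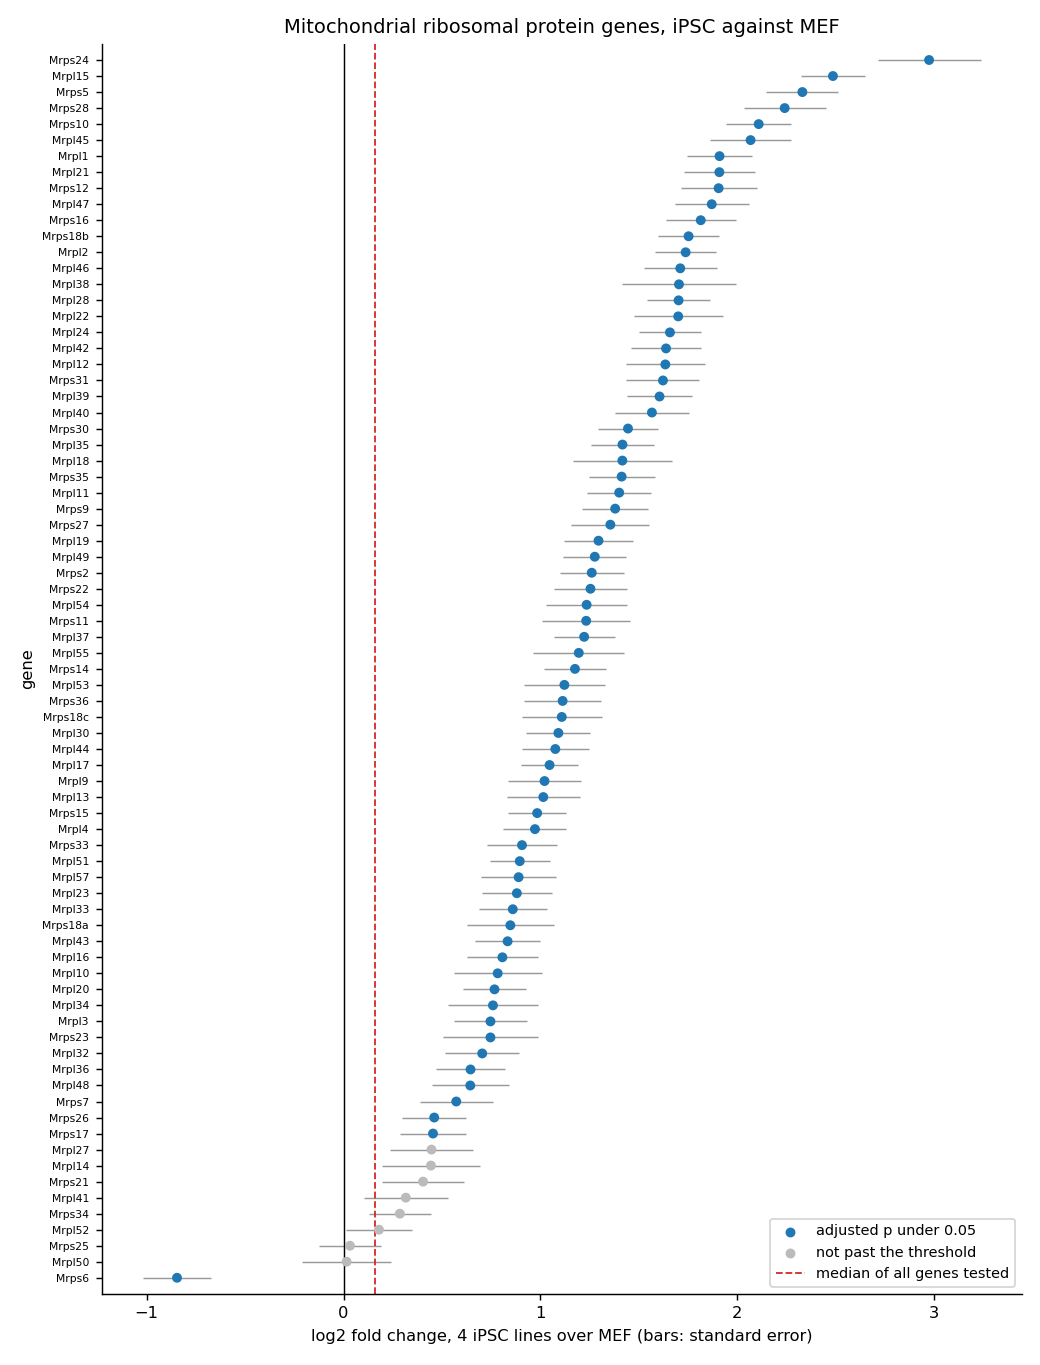
Log2 difference of the 4 iPSC lines against MEF for each of the 77 members, with standard error bars, blue where the adjusted p was under 0.05 and grey otherwise, and the median of all genes tested dashed. Mrps24 (2.97) is highest and Mrps6 (-0.85) is the only member that fell.

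Gene lists around the mitoribosome were also mostly higher in iPSC than in MEF, where 36.5% of all genes rose and 31.6% fell. Of 83 cytosolic ribosomal protein genes 81 rose (median 1.44) and of 80 respiratory chain genes 72 rose (median 1.24); these lists were chosen after their values were seen. Of 25 assembly factors 20 rose and 1 fell (median 1.05). Tfb1m, the methyltransferase of the small subunit ribosomal RNA, rose by 1.99 (SE 0.22), while Mterf4, which brings a methyltransferase to the large subunit, fell by 1.94 on the log2 scale (SE 0.15), from 21.8 RPKM in MEF to 5.1 to 5.91 in iPSC. Of 15 translation factors 10 rose and 1 fell, of 20 genes for mitochondrial tRNA synthetases and their partners 16 rose and 2 fell, and of 10 mitochondrial DNA expression genes 7 rose and 1 fell. Among 10 tested biogenesis regulators 7 rose and 1 fell. Nrf1 rose by 1.06 (SE 0.16) and Gabpb1, a subunit of the ETS factor GABP, by 1.48 (SE 0.16). Gabpa, the DNA-binding subunit of GABP, rose by 0.53 (SE 0.15), and Yy1 did not pass the threshold (0.30, SE 0.18, adjusted p = 0.184). Myc fell by 1.99 on the log2 scale (SE 0.37), with 154 RPKM in MEF and 24.2 to 57.4 in iPSC. Mycn, the other Myc gene of the list, rose by 3.40 (SE 0.64), with 1.005 RPKM in MEF and 6.37 to 18.7 in iPSC. It had the largest rise of the 10 regulators. Ppargc1b (2.30, SE 0.48) and Pprc1 came next, ahead of Gabpb1 and Nrf1.

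ESC against MEF, 1 library against 1, was compared without a test. By RPKM 70 of 77 members were higher in ESC and 37 more than 2-fold, against 32.2% of all genes past that fold. The median log2 difference was 0.99 for members and 0.00 for genes with reads in both. Largest were Mrpl45 at 6.85-fold and Mrps24 at 6.38-fold, then Mrpl15 at 5.65-fold. The 7 lower in ESC were Mrps6 (-0.59), Mrpl50 (-0.54), Mrpl3 (-0.41), Mrps25 (-0.16), Mrpl52 (-0.10), Mrps21 (-0.05) and Mrps34 (-0.03). Of these 7, Mrpl3 is the 1 called higher in iPSC than in ESC.

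By annotation (GENCODE vM21), 27 of 77 members share exon sequence with a gene on the other strand and 5 with one on the same strand, and 22 overlap another gene of the table. Mrpl46 and Mrps11 overlap each other, at 24.3 to 27 and 15.5 to 21 RPKM in iPSC. RefSeq names pseudogenes of 4 members. Reads shared with such neighbours and copies are uncertain.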

How the data were processed

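Whole-number read counts per gene and library, and RPKM values, were deposited by the authors in 1 table of the series, per the file headers. RPKM are those counts scaled by the authors by gene length and library total, and recomputing them gave the members' deposited RPKM within a relative difference of 4.5e-15. The submitters' processing notes list CASAVA 1.8.2 and build mm10 without saying what each was for. For the aligner, counting program and strand setting, the entry is: not given in the sources used here. Counts of the 6 libraries went into the quasi-likelihood test of edgeR 4.0.16 (R 4.3.3) after TMM scaling and the default filter (16435 genes left) and 4 group means, so that 2 residual degrees of freedom came from the iPSC lines. For ESC and MEF, with 1 library each, the spread of the iPSC lines is taken to hold. Adjusted p are Benjamini-Hochberg values over all genes tested, with a threshold of 0.05. Separate cultures or animals are not stated in the labels, and p-values then cover the spread between these samples alone, which may be technical. Differences are log2 values with standard errors (SE), levels are deposited RPKM with the SD over the 4 iPSC lines, and comparisons of single lines use log2 CPM against the mean of the other iPSC lines.

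Alternatives were RLE scaling, DESeq2 1.42.0, 2 other filters, limma 3.58.1 on log2(RPKM + 1) or log2(RPKM + 0.1), genes of chromosome 11 left out, 1 group of 4 iPSC lines, and each iPSC line left out. Genes were named as the 8 members of largest fold past the threshold in each direction (filled up to 4 with members whose groups do not overlap), the 5 of highest and lowest level, those on chromosome 11 and a set list of structural members. The members and lists were chosen with earlier results of these data known. Positions and promoters are from RefSeq on GRCm38, overlaps from GENCODE vM21.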

Additional observations from a re-analysis of the deposited data

Results flagged for a closer look

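In 9 of 77 members 1 iPSC line lay far from the other 3, by Dixon's test on the 4 lines; chance flags about 1 in 20 groups. The share was 11.7% of members and 8.01% of all 16435 genes tested. Differences are log2 CPM of that line minus the mean of the other 3. PC iPSC 5 was high for Mrpl38 (0.69), Mrps23 (0.56), Mrps7 (0.35) and Mrps36 (0.09), of which the first 3 are on chromosome 11. It was low for Mrpl50 (-0.59), Mrpl13 (-0.35) and Mrps22 (-0.24). PC iPSC 13 was high for Mrps2 (0.19), and control iPSC 3 was low for Mrpl46 (-0.12). Of the 10 members on chromosome 11, 3 were picked out, where 12.3% of the 1352 genes of that chromosome were. Of the other 67 it was 6, or 8.96%, where 7.62% of the genes of other chromosomes were. With 10 members and 3 such cases, nothing particular to the members is read from these counts.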

How the results depend on the processing

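No member passed the test between PC and control iPSC under any alternative run. No other gene passed either, except in the run without control iPSC 7, where genes outside the family did. Against MEF, 64 to 69 of 77 members were called higher under each alternative (59 of 67 with chromosome 11 left out) and Mrps6 was the 1 lower member in all of them. Leaving out 1 iPSC line gave 66 to 69 higher. Against ESC, limma on log2(RPKM + 1) and on log2(RPKM + 0.1) called 0 higher and 0 lower, with adjusted p of 0.0655 to 0.108 for the 5 members otherwise past the threshold. Of all genes tested, these runs called 3 and 3 higher and 8 and 0 lower, against 774 and 939 in the main fit. The loss of calls was thus not particular to the members. DESeq2 called 5 higher and 2 lower (Mrpl38 added), beside 1297 and 1054 of all genes. With chromosome 11 left out 0 members were lower, since Mrpl45 lies there. Leaving out 1 iPSC line gave 3 to 7 higher and 2 to 3 lower, the most without PC iPSC 5 (7 and 3, with Mrpl13, Mrpl50 and Mrps12 higher and Mrpl38 and Mrps23 lower). Mrpl22 against ESC, at -0.05 and not past the threshold, ran from -0.18 to 0.039 when 1 iPSC line was left out and changed sign without PC iPSC 13; the cause was not tested. Against MEF, 6 members lost their call under at least 1 alternative (Mrpl10, Mrpl48, Mrps7, Mrps17, Mrps23 and Mrps26) and 3 gained one, Mrpl14 and Mrpl27 without PC iPSC 13 and Mrps21 with limma. No paired analysis was possible because line numbers are not shared between groups. The lowest count of a member was 205 reads in a library, so counting error adds most to the members of fewest reads. The 2 residual degrees of freedom and the single ESC and MEF libraries limit all tests.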
